A study of Bos taurus with 64 samples.

Results

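Cytokine, chemokine and innate immune genes were measured in the M. longissimus thoracis (LT) and the M. semitendinosus (ST) of cull cows that were stressed or handled with limited stress before slaughter. Members were the genes whose name in the array files begins with the symbol of an interleukin, a chemokine or its receptor, a Toll-like receptor (TLR), an interferon, an interferon regulatory factor or an interferon-stimulated gene, a tumor necrosis factor or its receptor, a CD antigen, BOLA, a STAT or SOCS factor, NF-kB, an adhesion molecule, a complement or C1q protein, a colony stimulating factor, a prostaglandin synthase, a lysozyme or MYD88. CD36 was left out. This gave 69 genes with 70 probes of 5449 gene names and probe sets with 13285 probes, and CCR7 was the gene with 2 probes. The names matched 14 interleukins and interleukin receptors, 12 chemokine receptors, 9 genes of the interferon system, 7 of the TLR group, 6 complement and C1q proteins, 6 adhesion molecules, 5 CD antigens, 5 STAT and SOCS factors, 2 TNF genes, 2 BOLA genes and 1 lysozyme. IL8RB, a chemokine receptor that is CXCR1 in RefSeq, was counted by its name with the interleukin receptors. Some genes entered by their symbol without a known cytokine or immune signal function, such as BOLA1, a bolA homolog that is no histocompatibility gene, and LYZL6. No chemokine ligand, IL1B or IFNG probe was among the members.

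All 32 animals were Normand cows aged 4.5 years on average that were finished for 101 days on a lipid-rich diet, and each gave 1 LT and 1 ST sample, excised no later than 15 minutes after slaughter. Stressed cows (16, labelled Moderated stress) were isolated from other animals during transport and then walked a labyrinth for 30 minutes, and the other 16 cows were handled with limited stress. In each stress group 8 cows received the EP diet (labelled Lipid VitE PERP, with vitamin E and polyphenol-rich plant extracts added to the lipids) and 8 the control diet (labelled Lipid-rich), so that no group was without added lipids. The 64 single-colour arrays gave a 75th percentile of signal from 2470 to 4202 units, and 71.4% to 80.9% of the spots were well above background. Levels are given as the log2 of the signal over this percentile of the array, so that a level of 0 is the 75th percentile, and a level of one gene was not set against that of another.

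Cytokines are secreted proteins by which immune, muscle, fat and vessel cells signal to each other, and chemokines are the cytokines that guide migrating leukocytes through G protein-coupled receptors. TLRs bind microbial products and molecules of damaged tissue, and most of them signal through MYD88 to NF-kB, whereas many interleukin and interferon receptors signal through JAK kinases and STAT factors, with SOCS proteins as their inhibitors. In skeletal muscle these transcripts come from fibres and from resident macrophages, endothelium, fat cells and blood left in the vessels. In a bulk sample, fewer cells of a type and less RNA per cell cannot be told apart.

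Shown are the probes of the 5 members that passed the stress test in a muscle or only in the fit of both muscles described below. Each of these genes is measured as a member by a single 60-base probe, of which the first 30 bases are printed 5′ to 3′. Capitals mark the bases that also lie in a probe of a custom set of 5 probes for the same transcript, which was found for IL16 and STAT5A. Sets were found by bases shared with the member probe, so a set elsewhere on the transcript of TLR6, TLR4 or CXCR6 was not searched for.
IL16: tacaaacgacagactGCATCTAGAGAGCTT
STAT5A: gtttTGTATTTGTATCTCTGTGCATACTGA
TLR6: accacaactagagaaaagtccacacagcaa
TLR4: cgtcttctctatcaacccataccataaata
CXCR6: agactgtcaggagtctaagcagcacttctg
The array files place the whole probes, in the build Btau_3.1, at chr21:26940187-26940246 (plus strand) for IL16, chr19:43748935-43748993 (plus) for STAT5A, chr6:60355292-60355351 (minus) for TLR6, chr8:112437692-112437751 (plus) for TLR4 and chr22:54734376-54734435 (minus) for CXCR6. The position within the exons or UTRs was not analysed here. Of the 60 bases, 45 of IL16 and 56 of STAT5A were shared with the custom probes. Hybridisation of transcripts of TLR1, a close paralog, to the TLR6 probe was not tested.

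A probe entered the tests of a muscle if 11 or more of its 32 arrays had it well above background. In the LT 42 members (60.9%) and in the ST 41 members (59.4%) were tested, against 79.1% and 77.8% of all transcripts of the array. A transcript counted as tested if any of its probes was. Members had 1 probe each except CCR7, and many transcripts had several, so these shares are not strictly alike. Both muscles measured 41 members, TLR2 was tested in the LT alone and 27 members in neither. Of the 69 members, 29 were well above background on all 64 arrays, 13 on 1 to 5 arrays and 5 (CCR9, IL12RB2, IL18R1, IL24 and TLR8) on 0 arrays. No member was tested with a stress group in which all 16 arrays were near background. Members near background were mainly secreted cytokines and leukocyte receptors, with 10 of 14 interleukins and receptors and 8 of 12 chemokine receptors not tested. IL6, a cytokine that working muscle can secrete, was above background on 7 arrays, and TNF, the early cytokine of macrophages, on 4. The T helper cytokines IL4, IL13 and IL3 and the endothelial selectin SELE reached it on 1 array each with their member probes (of 5 custom IL13 probes, 1 was above background on all 64 arrays and 4 on 0), and the lysozyme-like LYZL6 was not tested. By contrast, all 5 CD antigens, 4 of 5 STAT and SOCS factors and 4 of 6 adhesion molecules were above background on every array.

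In the LT, 2 of 42 tested members were lower in stressed than in limited-stress cows, IL16 and TLR6, and 0 were higher, where 3.74% of all 4309 transcripts were called (1.53% lower). In the ST, 2 of 41 were lower, STAT5A and TLR6, and 0 were higher, where 3.61% of 4242 transcripts were called (2.12% lower). The median log2 fold change (stress / limited stress) of the members was -0.06 in both muscles, beside -0.05 and -0.06 over all transcripts. When the effect was averaged over the LT and the ST with the cow as a random block, a fit chosen after values were seen, 5 of 41 members were lower (12.2%: TLR6, IL16, CXCR6, TLR4 and STAT5A) and 0 were higher, where 7.64% of 4226 transcripts were called (4.9% lower and 2.74% higher). A call needed an adjusted p (limma, Benjamini-Hochberg over all tested probes) under 0.1 with 1 direction in 80% or more of the tested probes of the transcript. The 41 members had 41 tested probes, whereas the 4226 transcripts had 10244. A member was thus called on 1 probe, while many transcripts needed several. The shares of members and of all transcripts, here and below, are therefore not strictly alike.

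**Figure D1:**
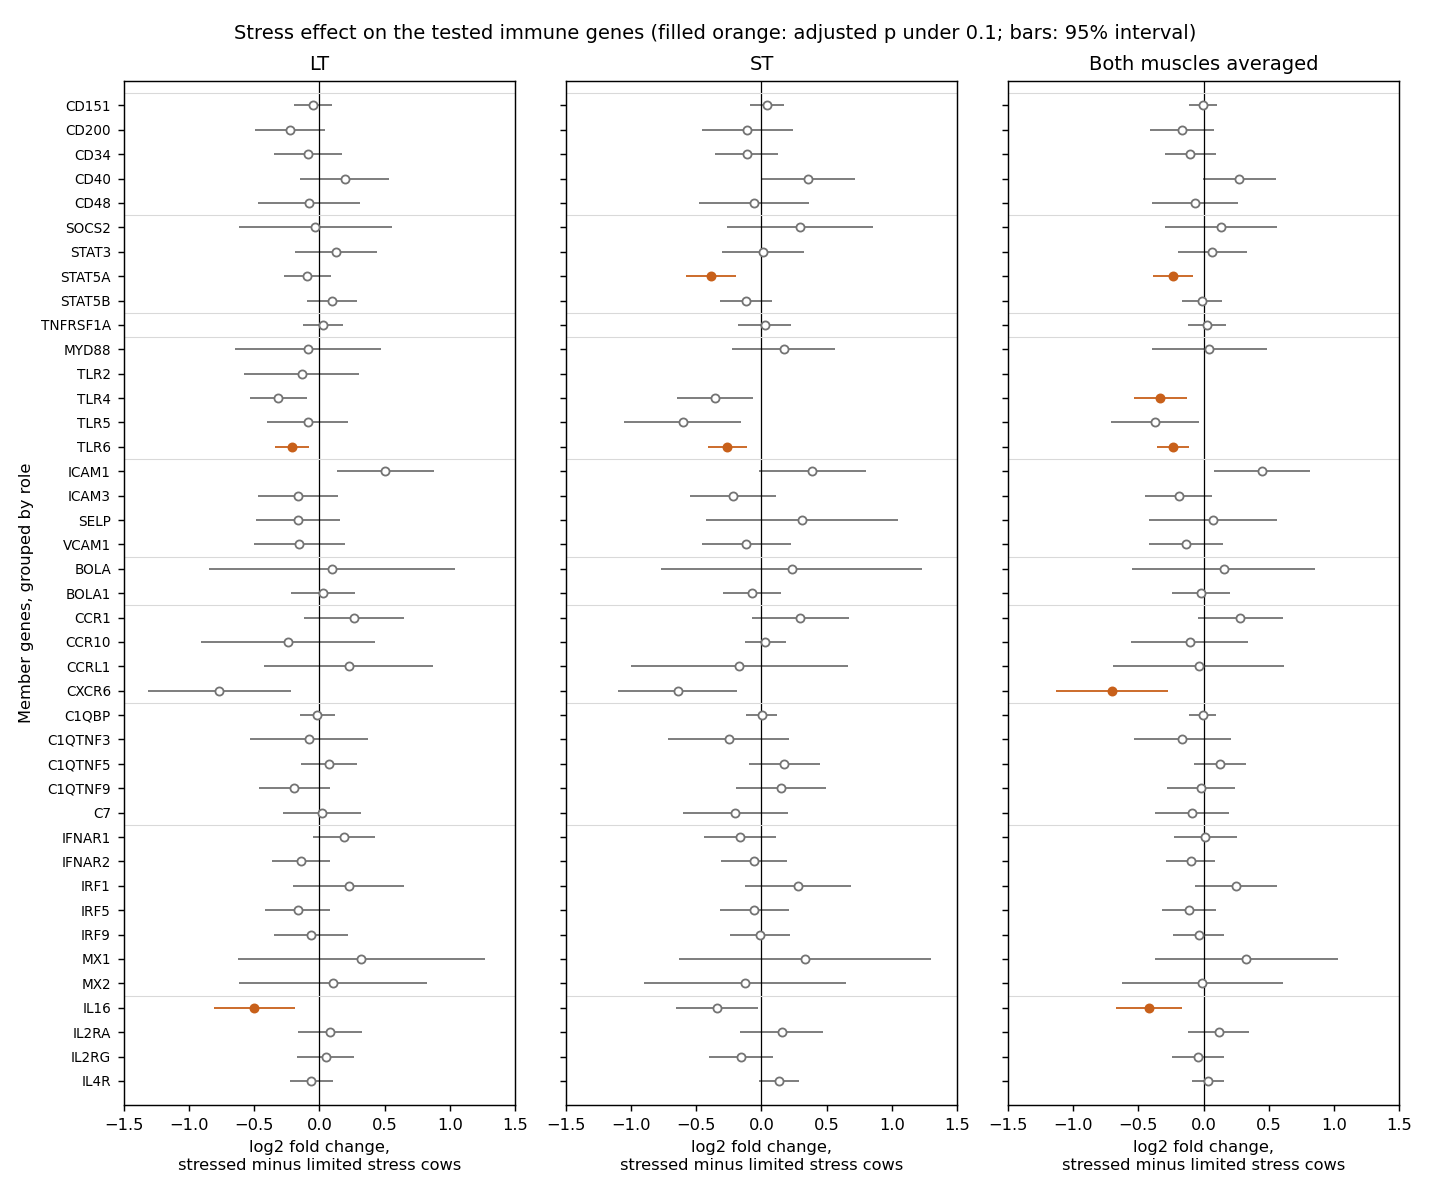
Log2 fold change (stress / limited stress) of the tested members except 1 in the LT, the ST and both muscles averaged, with bars for the 95% interval and called members marked. IL16 and TLR6 in the LT and STAT5A and TLR6 in the ST were called lower, and ICAM1 had a log2 fold change of 0.50 in the LT that did not pass the test.

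TLR6, which pairs with TLR2 to sense bacterial lipopeptides, was called in each muscle. In the LT its level was lowest at -2.47, median -2.22 and highest at -2.03 in limited-stress cows, and -2.92, -2.45 and -2.07 in stressed cows. In the ST the same values were -1.90, -1.60 and -1.39 in limited-stress cows and -2.55, -1.85 and -1.41 in stressed cows. The groups overlapped, and the stressed cows reached lower, with 3 of 16 (LT) and 2 of 16 (ST) higher than the limited-stress median. The log2 fold change was -0.21 ± 0.07 (SE) in the LT (adjusted p = 0.0965) and -0.26 ± 0.08 in the ST (adjusted p = 0.0584), and over both muscles TLR6 fell by 15.1% (adjusted p = 0.0122). The spread was wider in stressed cows, with an SD of 0.23 against 0.10 in the LT and 0.25 against 0.15 in the ST, a difference that was not tested.

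IL16, a chemoattractant of CD4 cells, had levels from -4.89 to -3.27 with a median of -3.63 in the LT of limited-stress cows, and from -5.28 to -3.04 with a median of -4.18 in stressed cows. In the ST the levels ran from -4.15 to -2.83 with a median of -3.62 in limited-stress cows and from -4.94 to -3.00 with a median of -3.95 in stressed cows. Most stressed cows thus lay low in each muscle while the ranges overlapped, since 1 of 16 (LT) and 3 of 16 (ST) were above the limited-stress median. The log2 fold change was -0.50 ± 0.16 in the LT (adjusted p = 0.0898) and -0.34 ± 0.16 in the ST, where the test was not passed (adjusted p = 0.267). Over both muscles IL16 fell by 25.2% (adjusted p = 0.0454). The 5 custom probes of IL16 gave -0.47 to -0.40 in the LT and -0.39 to -0.35 in the ST, and 0 of 5 passed the threshold in the LT (largest adjusted p = 0.155), whereas over both muscles 5 of 5 passed (-0.43 to -0.39).

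STAT5A, a transcription factor of growth hormone, prolactin and interleukin signals, was called in the ST. Its ST levels ran from -5.58 to -4.62 (median -5.09) in limited-stress cows and from -6.04 to -5.07 (median -5.53) in stressed cows, of which 1 of 16 was above the limited-stress median. The ST log2 fold change was -0.38 ± 0.10 (adjusted p = 0.0254), and 4 of the 5 custom STAT5A probes passed as well, with log2 fold changes of the set from -0.42 to -0.25. In the LT, levels were -5.64 to -4.90 and -5.77 to -4.64, and the log2 fold change was -0.09 (adjusted p = 0.651), with custom probes from -0.14 to 0.10. Over both muscles 2 of the 5 custom probes passed (-0.27 to -0.08) and the set was not called. The direct test of the difference between muscles gave 0.29 for STAT5A (p = 0.0318, adjusted p = 0.999), so that a difference between the LT and the ST was not shown. STAT5B, its close paralog, had 0.10 in the LT and -0.12 in the ST, neither past the threshold.

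TLR4, the receptor of bacterial lipopolysaccharide, and CXCR6, the receptor of the chemokine CXCL16 on T and NK cells, were not called in the LT or the ST alone but were called in the fit of both muscles. TLR4 had levels of -5.61 to -4.67 (median -5.07) in the LT of limited-stress cows and -6.18 to -5.06 (median -5.35) in stressed cows, and in the ST -5.62 to -4.19 (median -4.96) and -6.13 to -4.60 (median -5.24). The stressed cows of each muscle were mostly in the lower range of TLR4, with 1 of 16 and 2 of 16 above the limited-stress median. The log2 fold change was -0.31 in the LT (adjusted p = 0.149) and -0.35 in the ST (adjusted p = 0.209), and over both muscles TLR4 fell by 20.6% (adjusted p = 0.0474). CXCR6 had levels of -9.06 to -4.99 (median -6.08) against -8.27 to -5.61 (median -6.87) in the LT and -6.99 to -4.92 (median -6.19) against -8.41 to -5.78 (median -6.64) in the ST, limited stress first. It had the largest decrease of the 5 members, with log2 fold changes of -0.77 in the LT (adjusted p = 0.158) and -0.64 in the ST (adjusted p = 0.149), and fell by 38.6% over both muscles (adjusted p = 0.0465). The LT and ST values come from the same cows and are not independent.

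**Figure D2:**
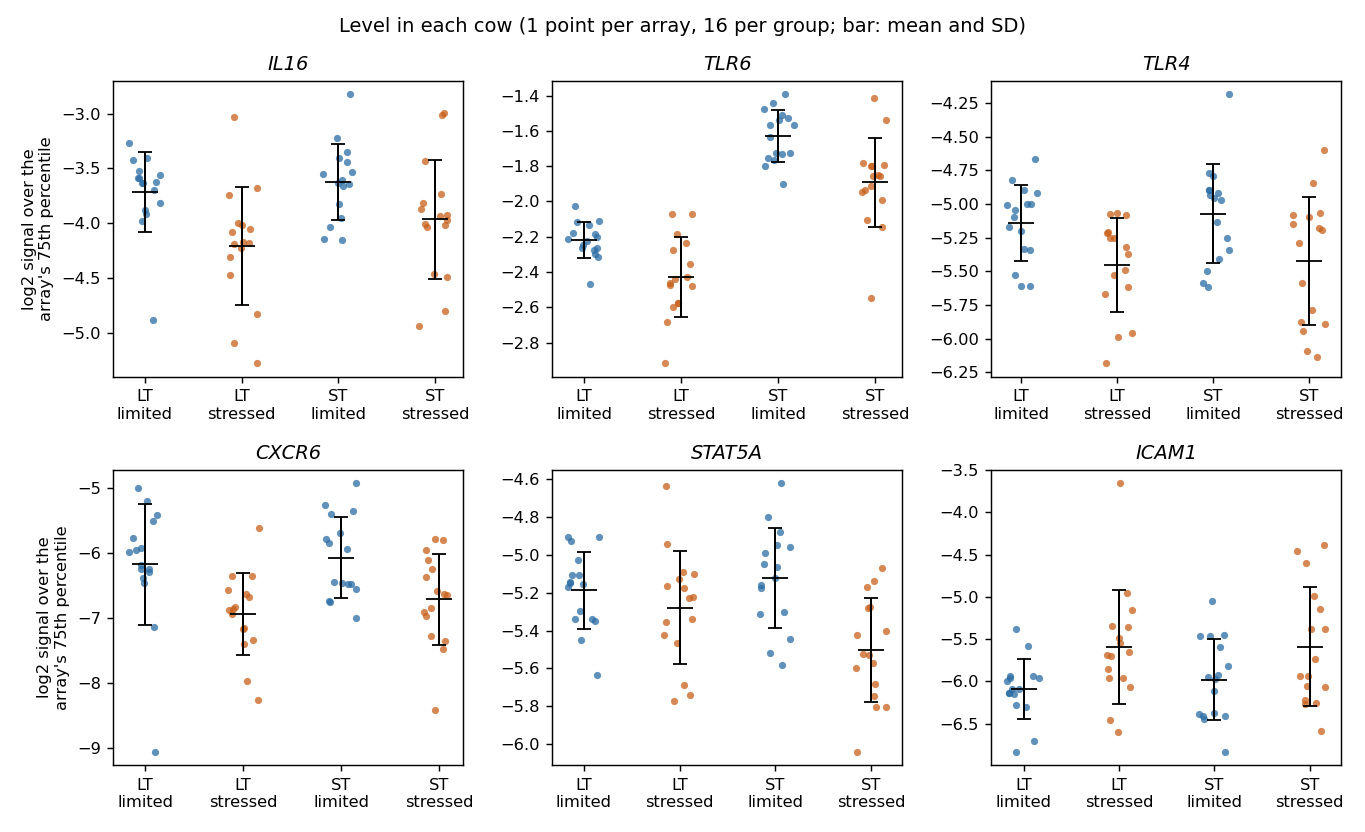
Levels (log2 signal over the 75th percentile of the array) by muscle and stress group, with each point a cow and the bar the mean with its SD. The members shown passed the stress test in a muscle or only in the fit of both muscles, or were close to the threshold. TLR6 in the ST ran from -1.90 to -1.39 in limited-stress cows and from -2.55 to -1.41 in stressed cows, and the groups overlapped in every panel.

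Arrays shared 9 glass slides (S1 to S9), and each slide held cows of both stress groups, so that the difference was also taken within slides. The stress groups were uneven on some slides. Of the ST slides, S4 held 1 stressed and 3 limited-stress cows, and S9 held 6 stressed and 1 limited-stress cow. The differences on S4 and S9 thus rest on 1 cow of a stress group. For TLR6 the stressed cows were lower on 4 of 4 LT slides (-0.39 to -0.09) and 5 of 5 ST slides (-0.53 to -0.16). For IL16 they were lower on 4 of 4 (-0.77 to -0.19) and 5 of 5 (-0.61 to -0.07), and for STAT5A in the ST on 5 of 5 slides (-0.49 to -0.25). TLR4 was lower on all 9 slides and CXCR6 on 3 of 4 LT and 5 of 5 ST slides. With the slide as a block, IL16 and TLR6 in the LT stayed past the threshold and TLR4 passed it (adjusted p = 0.0493), whereas in the ST neither STAT5A (-0.37, adjusted p = 0.179) nor TLR6 (-0.24, adjusted p = 0.265) did. Scaled to the control features of the array, IL16 (-0.68, adjusted p = 0.267) and TLR6 (-0.39, adjusted p = 0.409) in the LT kept the sign and lost the call. No member was called in either muscle or over both, where 0.812% (LT), 0.896% (ST) and 1.37% (both) of all transcripts were called.

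Other members were read one group at a time, and none of them passed the test. Among adhesion molecules, ICAM1, which binds leukocyte integrins on activated endothelium, had levels of -6.84 to -5.38 (median -6.09) in the LT of limited-stress cows and -6.60 to -3.66 (median -5.67) in stressed cows, of which 14 of 16 were above the limited-stress median. Its log2 fold change of 0.50 ± 0.19 in the LT (adjusted p = 0.170) and 0.39 in the ST (adjusted p = 0.340) was the highest of all tested members in each muscle. VCAM1, which holds leukocytes on the vessel wall, had -0.15 in the LT and -0.12 in the ST. Among the TLR group, TLR5, the flagellin receptor, had -0.60 ± 0.23 in the ST (adjusted p = 0.163) beside -0.09 in the LT, and the adaptor MYD88 had -0.09 and 0.17. The 7 tested genes of the interferon system included MX1, an antiviral effector, with 0.32 ± 0.48 in the LT and 0.33 ± 0.49 in the ST, the widest errors together with BOLA. The interferon receptor chain IFNAR2 had -0.14 and -0.06, and the transcription factors IRF1, IRF5 and IRF9 lay between -0.17 and 0.28. Among the interleukin receptors, IL2RA, IL2RG and IL4R lay between -0.16 and 0.15 in the 2 muscles, and the TNF receptor TNFRSF1A at 0.02 in both. The 95% interval was within 1.5-fold in both directions for 30 of 42 members in the LT, 25 of 41 in the ST and 32 of 41 over both muscles, with median standard errors of 0.15 (LT) and 0.16 (ST).

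Markers of other cell types did not pass the stress test in either muscle. PTPRC, CD48 and ITGB2, which mark leukocytes (CD48 is also a member), had log2 fold changes of -0.12 to -0.06 in the LT and -0.06 to -0.01 in the ST. Their summed level ran from -3.74 to -1.95 in limited-stress and from -3.14 to -1.40 in stressed cows in the LT, and from -3.09 to -1.39 and from -3.62 to -1.34 in the ST. The 2 tested macrophage markers, MSR1 and FCER1G, had -0.23 and 0.04 in the LT and 0.02 and 0.06 in the ST, and their list also held ITGAM, which was not tested. No probe carried the name of a T, NK or B cell marker of the lists, so that the share of lymphocytes could not be followed. The 5 tested endothelial markers, the 5 of fibroblasts and the 7 of muscle fibres were not called, nor were 3 adipocyte markers, whose median log2 fold change was -0.23 for the LT and -0.63 for the ST. The part of these cell types in the lower IL16, TLR4, TLR6, CXCR6 and STAT5A was not tested.

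Further genes of the pathways were taken from lists. Their genes were looked up by gene name, and custom sets, which carry no gene name, were not searched for them. Of 33 kinases, adaptors and inhibitors that transmit TLR and cytokine signals, 5 were found by name and tested (IRAK1, TIRAP, RIPK1, PIAS1 and FADD). Of these, 0 were called for stress in the LT or the ST. The adaptor TIRAP, which links TLR4 to MYD88, had -0.26 and -0.21, FADD -0.30 and -0.27, IRAK1 -0.18 and -0.16 and PIAS1 -0.03 and -0.18. The kinase RIPK1 had 0.31 and 0.23 (adjusted p = 0.107 in the LT), and RIPK1 was called higher over both muscles (0.27, adjusted p = 0.0593). Of 28 acute phase and myeloid genes 5 were tested under their own name. TREM1, a receptor that amplifies TLR signals in myeloid cells, was lower in stressed cows in the LT (-0.32, adjusted p = 0.00602) and in the ST (-0.31, adjusted p = 0.0104). The antimicrobial peptide LEAP2 was lower in the LT (-0.64, adjusted p = 0.00347) and not called in the ST (-0.02, adjusted p = 0.959). S100A12 (-0.25 and -0.06), LTF (0.02 and 0.29) and CFD (-0.19 and -0.17) were not called in the LT or the ST. The list drawn up as anti-inflammatory glucocorticoid targets had 3 of its 14 genes found by name on the array. This name is a label of the list, and neither induction by glucocorticoids nor an anti-inflammatory effect was tested. The study describes CEBPD as promoting proinflammatory signals, and cites a proposed role of C/EBP proteins in both inflammation and glucocorticoid effects. CEBPD, a transcription factor of the acute phase response, was higher in both muscles (1.68 and 1.36, adjusted p = 3.14e-06 and 0.000319), as was DUSP1, a phosphatase that dampens MAP kinase signals (0.34 and 0.38, adjusted p = 0.0994 and 0.0495), and CDKN1A had 0.90 and 0.35 without passing.

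The EP diet compared to the control diet changed no member, as for all transcripts (0% called in each muscle). Without adjustment, 2 members had a p under 0.05 in the LT, TLR5 (0.43) and MX2 (0.88), and 1 in the ST, BOLA (-1.11). The BOLA value was -0.64 without the cow with the lowest level, and the MX2 value was 0.47 without the 2 highest cows, all fed the EP diet. The interaction of stress and diet was called for 0 members and 0% of all transcripts, and CD40 (0.87) and IL2RA (0.54) in the LT and C1QTNF9 (-0.83) in the ST had p under 0.05 without adjustment. The interaction of muscle and stress was called for 0 of 41 members (0% of all), and STAT5A alone had p under 0.05 without adjustment. With the cow as a replicate block, 0 members were called (0.142% of all transcripts), and STAT5A (p = 0.00545, adjusted p = 0.405), IL4R, IFNAR1, STAT5B and TLR5 had limma p under 0.05 without adjustment.

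The LT and the ST differed in 17 of 41 members (41.5%), 11 higher and 6 lower in the LT, where 51.8% of 4226 transcripts were called (21.9% higher and 29.9% lower in the LT). This fit, which gave the p values and errors between muscles below, did not pair the samples of a cow. With the cow as a block, 56.1% of members and 61.7% of all transcripts were called. Each slide and each scan day held samples of 1 muscle, so that the slide and the muscle cannot be told apart. Scaled to the control features, 13 members were higher and 4 lower in the LT, and among all transcripts 1146 were higher and 245 lower against 924 and 1263, while the median of all transcripts moved from -0.03 to 0.15.

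CCRL1 (ACKR4 in RefSeq), an atypical receptor that takes up the chemokines CCL19, CCL21 and CCL25 without G protein signals, had the largest difference of all members. Its level was -6.57 ± 0.91 in the LT and -3.72 ± 0.90 in the ST (mean ± SD, 31 cows with both values), and it was lower in the LT in 31 of 31 cows, although the ranges over these cows overlapped (-9.31 to -5.06 and -5.54 to -1.78). The fitted log2 fold change (LT / ST) was -2.70 ± 0.27 (adjusted p = 3.5e-12) with the ST value of the cow that had no LT value, and the difference of group means was -2.85 without it. This ST value was -8.41, the lowest of the ST and within the range of the LT, and the next lowest ST value was -5.54. A high ST level was thus not seen in every cow. TLR6 was lower in the LT in 32 of 32 cows, with levels of -2.92 to -2.03 in the LT and -2.55 to -1.39 in the ST and a log2 fold change of -0.56 (adjusted p = 2.62e-14). TLR5 was lower in the LT in 24 of 31 cows (-0.61, adjusted p = 0.000281), and the tetraspanin CD151 in 30 of 32 (-0.29). IL4R, the receptor of IL4 and IL13, was lower in 25 of 32 cows (-0.19). Neither CD151 (-0.10, adjusted p = 0.561) nor IL4R (-0.00, adjusted p = 0.990) passed when scaled to the control features.

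CD200, a surface ligand that restrains myeloid cells, had the highest log2 fold change and was higher in the LT in 31 of 32 cows (-4.57 ± 0.41 against -5.13 ± 0.50), with a log2 fold change of 0.55 ± 0.11 (adjusted p = 4.66e-05). Of the 5 tested complement and C1q members 4 were higher in the LT, with the secreted factors C1QTNF3 (0.45), C1QTNF9 (0.45, 29 of 32 cows) and C1QTNF5 (0.18) and the mitochondrial C1q-binding protein C1QBP (0.30, 30 of 32 cows). Both TNF receptor family members that were tested, CD40 (0.35) and TNFRSF1A (0.15), were higher in 25 of 32 cows. BOLA1 (0.51, 27 of 32 cows), STAT5B (0.15) and CD34 (0.21), a marker of endothelium and stem cells, were also higher in the LT. The endothelial markers PECAM1 and ESAM were higher in the LT too, and the part of this in CD34 was not tested. Of 5 custom probes each, 4 passed for BOLA1 and 2 for CD34, whose set was not called (mean log2 fold change 0.19). C1QTNF5, CD34, STAT5B and TNFRSF1A were not past the threshold with the slide as a random block.

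**Figure D3:**
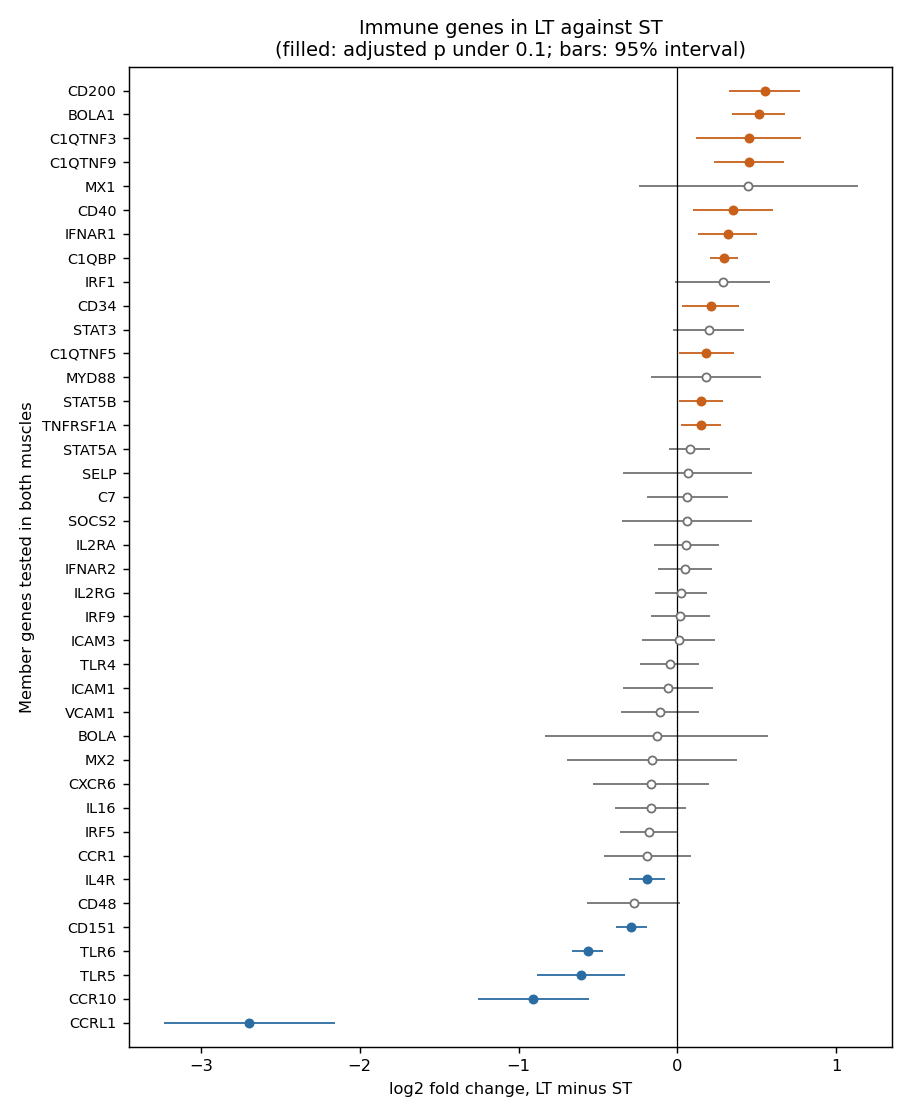
Log2 fold change (LT / ST) of the members tested in both muscles except 1, with bars for the 95% interval and called members marked. CCRL1 lies apart at -2.70, and CD200 has the highest value at 0.55.

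CCR10, a receptor of skin-homing lymphocytes, was called lower in the LT (-0.91 ± 0.18, adjusted p = 2.2e-05) in 24 of 32 cows, and IFNAR1, a chain of the type I interferon receptor, was called higher (0.32, adjusted p = 0.00376). The CCR10 level was 4.10 and 4.27 on average on the LT slides S5 and S6 and 2.41 and 2.20 on S7 and S8, while the 5 ST slides had means from 4.02 to 4.29. Slides held 98.1% of its variance in the LT, beside a median of 12.3% over members and 17.6% over all probes. Without slides S7 and S8 the log2 fold change of CCR10 was 0.028 (adjusted p = 0.757), and without S5 and S6 it was -1.85. IFNAR1, with 55.2% of its LT variance between slides, had 0.05 without S7 and S8 (adjusted p = 0.733). BOLA1 (0.26 in place of 0.51) and C1QBP (0.19 in place of 0.30) were closer to 0, and CCRL1 (-2.68) and TLR6 (-0.47) changed less, and these 4 stayed past the threshold without these slides.

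**Figure D4:**
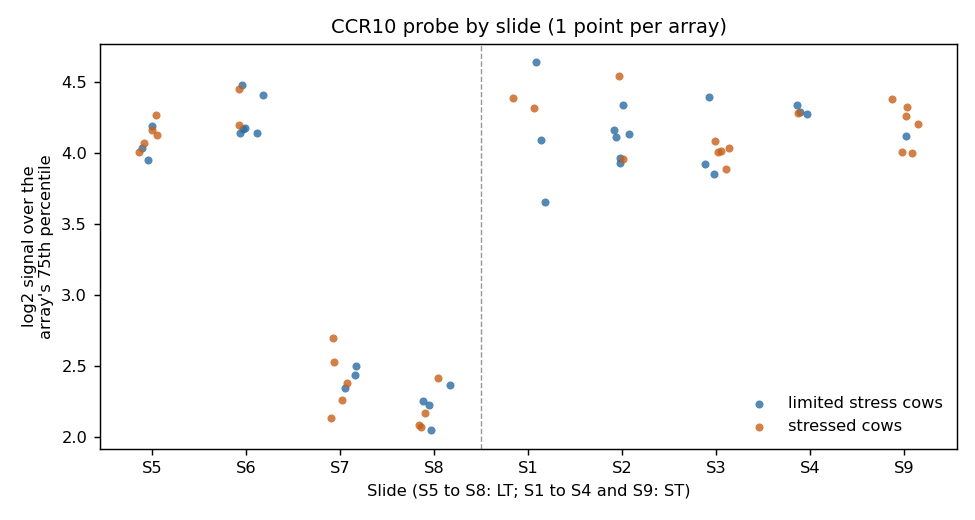
Level of CCR10 (log2 signal over the 75th percentile of the array) on each slide, with each point an array and the slides of the LT and the ST apart. The arrays of slides S7 and S8 lie between 2.05 and 2.70, and those of the other 7 slides between 3.66 and 4.64.

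The samples of both muscles of a cow were compared after the means of the 4 stress and diet groups had been removed. The correlation between the LT and the ST over cows had a median Pearson r of 0.56 over the 41 members (Spearman rho 0.50), beside 0.42 over all 10244 probes, and 24 members (58.5%) against 37.2% of all probes had an r over 0.5. These correlations are given as a description, since the 2 samples share the animal, the slaughter day and the handling. The genes with the highest correlation were chosen after values were seen. BOLA, the heavy chain of MHC class I, had r = 0.99 and rho = 0.95 over 31 cows (r = 0.94 without the 2 cows farthest from the median), MX1 r = 0.95 and rho = 0.85 (0.86 without 2 cows) and SOCS2, an inhibitor of growth hormone signals, r = 0.88 and rho = 0.85 (0.86). IRF1 and IRF9, transcription factors of the interferon response, had r = 0.85 and 0.83 (0.79 and 0.72 without 2 cows). ICAM1 (-0.03), IFNAR1 (-0.03) and BOLA1 (-0.07) had the lowest values, and TLR6 had an r of 0.24. With the slide means removed as well, BOLA1 had 0.50, TLR6 0.43, IFNAR1 0.25 and ICAM1 0.12, CCR10 was lowest at 0.08, and the median was 0.53 over members and 0.46 over all probes.

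MX1 ranged widely between cows. The median of the 32 cows was -5.24 (LT) and -5.70 (ST), and cow A (stressed, EP diet) reached -0.22 and -0.44, cow B (limited stress, EP diet) -0.50 and -0.99, and cow C (stressed, EP diet) -1.65 and -2.68. The same 3 cows were highest in both muscles, the highest 32.5 times the median in the LT and 38.2 times in the ST, and they ranked 1 to 3 on 5 of 5 custom MX1 probes in each muscle. MX2, a related antiviral effector that was near background on most arrays, was also highest in cows A (-4.55 in the LT and -4.56 in the ST) and B (-5.19 and -5.46), against medians of -8.52 and -8.04. The correlation of MX2 between muscles (r = 0.55) was 0.12 without 2 cows and so rests on these. For BOLA, cow B was lowest at -3.04 in the LT and -3.15 in the ST against medians of 4.36 and 4.50, and the other cows lay between 2.98 and 5.67. BOLA is highly polymorphic, and whether the probe matches the alleles of cow B was not tested, so that this value may not be a level of expression. SOCS2 was highest in cow D (stressed, control diet) in both muscles, at -2.07 and -1.79 against medians of -4.05 and -4.17.

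**Figure D5:**
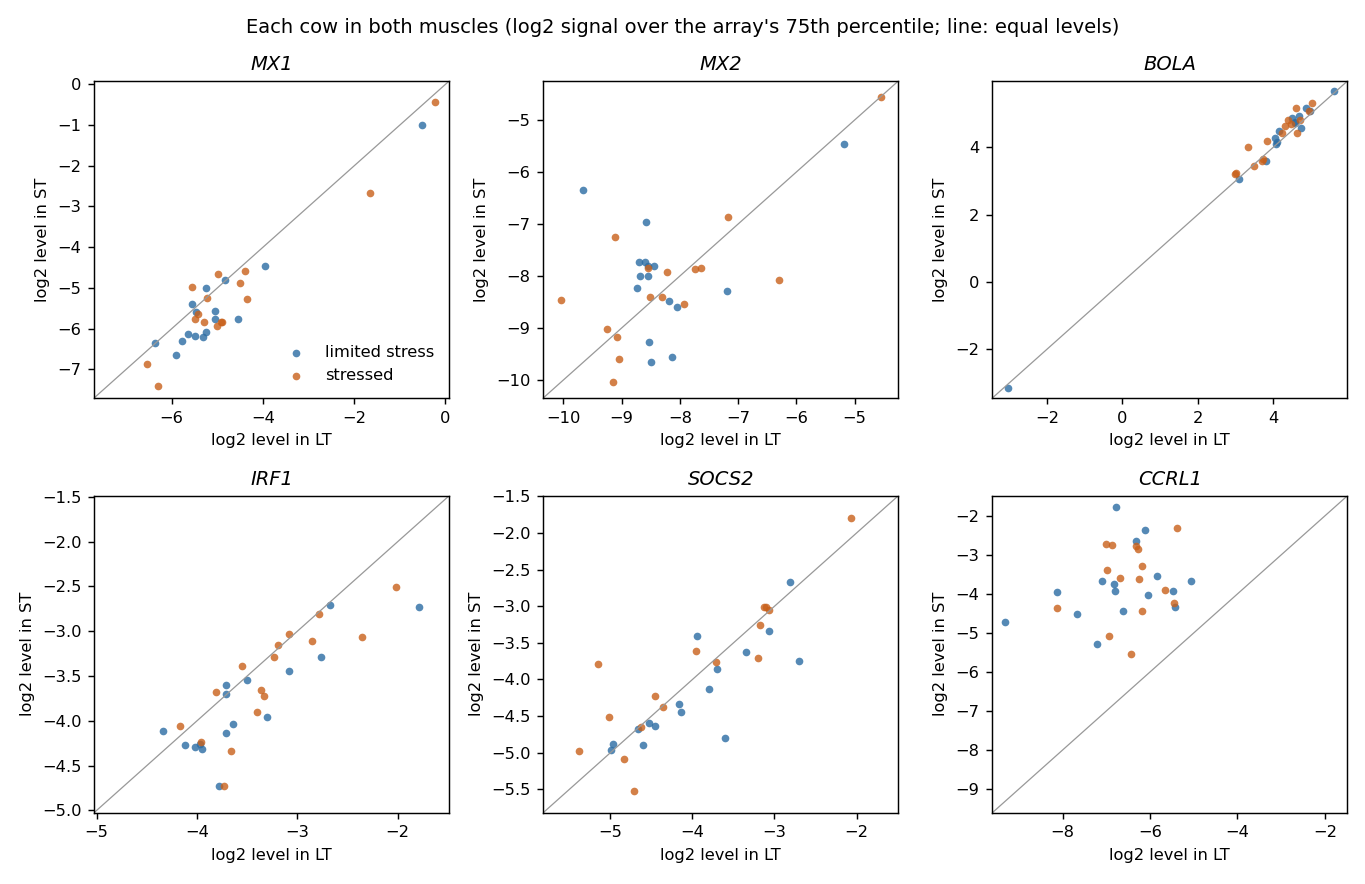
Level in the ST against level in the LT (log2 signal over the 75th percentile of the array) for 6 members, with each point a cow and the stress group by colour (31 cows for CCRL1 and BOLA, for which a spot of 1 cow was an outlier). MX1 and BOLA follow the diagonal with a few cows far from the rest, and all CCRL1 points shown lie on the ST side. The cow not shown for CCRL1 had the lowest ST level, -8.41.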

How the data were processed

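RNA of 32 LT and 32 ST samples was hybridised to single-colour Agilent arrays, and the groups came from the sample labels. The authors read the arrays with Agilent Feature Extraction, whose background subtraction is in the deposited intensities according to their headers, and arrays were not scaled to each other. The deposited value table held the same intensities and was an alternative. The methods of the study divide by the median of the control probes, but the control features of the files were near background (median 1.73 to 6.36 units), so log2 of each intensity was taken relative to the 75th percentile of its array, and the control median was an alternative (the files mark fewer control features than the methods count, and the methods also divide each probe by its median over arrays). Duplicate spots were averaged, and 12 of 4480 member values were left out as outlier spots. No member probe was saturated.

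Probes that 11 or more of the 32 arrays of a muscle had well above background were tested in R 4.3.3 with limma 3.58.1 (statmod 1.5.0) on the means of the 4 stress and diet groups, 8 groups for comparisons of muscles, with Benjamini-Hochberg adjustment over all tested probes. All tests were two-sided. A called transcript had 80% or more of its tested probes at an adjusted p under 0.1 with the same sign. The scripts were tested on simulated data. Period of slaughter is not in the labels and was not modelled. Precision is limited by how many arrays there are.

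The values of 1 member are not reported here. The members and lists were chosen with earlier results of these data known. Named members are those called in any comparison, those with the 5 smallest p for stress in each muscle, those the study names, the 10 largest called differences between muscles and the brightest member of a role without a named one. MX1, MX2, BOLA, SOCS2, IRF1, IRF9, ISG20, MYD88 and the other members given by role were named after values were seen. Custom probe sets took the name of a member with which they shared at least 25 bases in a row. RefSeq names (ARS-UCD2.0) were matched for 59 members by accession and 10 by symbol, and the symbol differed for 3. These were CCRL1 (ACKR4), IL8RB (CXCR1) and VCAM1 (LOC534578). The cow number pairs the muscles of a cow, and the consensus correlation within a cow was 0.41. Alternatives were the scaling, normexp background with quantile normalization (offset 50), the filter, the slide and scan day as blocks, the value table and the cow as a replicate block. Random slide and scan day blocks, left-out slides or cows and the fit of both muscles were added after the data had been seen.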

Additional observations from a re-analysis of the deposited data

How the results depend on the processing

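Stress calls depended on the scaling and the slide. In the LT, members called lower went from 2 to 0 with the control median, where the share of all transcripts called went from 3.74% to 0.812%. They also went to 0 without a filter (2.46% of all transcripts called). There 2 members, STAT2 and TLR7, were called higher with 0 and 1 LT arrays above background. In the ST, the count went from 2 to 0 with the control median or the slide as a block (0.896% and 1.23% of all transcripts called, from 3.61%). It went to 1 (STAT5A) with normexp or the scan day as a block (2.36% and 1.67% of all). Over both muscles it went from 5 to 0 with the control median (7.64% to 1.37% of all transcripts called). Under this scaling the median of all transcripts for stress moved from -0.05 to -0.23 in the LT. Between muscles, members higher in the LT went from 11 to 5 with the scan day as a random block. They went to 7 with the slide as a random block and to 7 without slides S7 and S8. Members lower in the LT went from 6 to 10 without S5 and S6. In these fits, in this order, 34.5%, 40.9%, 45.1% and 48% of all transcripts were called, against 51.8% in the main fit. CCR10 changed sign without S7 and S8 (0.028). With a replicate block (cow), pairing both muscles of an animal, the LT had 3 members lower under stress (5.73% of all transcripts called). CXCR6, with a log2 fold change of -0.77 and adjusted p = 0.0812, joined IL16 and TLR6. The ST had 2 (3.48% of all). In the LT 14 members were higher and 9 lower than in the ST (56.1% of members and 61.7% of all transcripts called). A fixed slide or scan day block could not be fitted between muscles, since each holds 1 muscle. The other 122 counts of members were equal to the main count or within 1.5 times of it. Many were 0 in both settings, such as all counts for diet and for the interactions, and the value table repeats the main values. Such counts say little about stability. The cause of the changes was not tested. Members near background, such as IL6 and TNF, had no usable fold change.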

Other observations

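IL6, TNF and the ISG20 member probe, which were below the limit for testing, and MYD88 were bright in single samples, which were picked after values were seen. IL6, a cytokine of working muscle and macrophages, was well above background in the ST of 4 of 16 stressed and 0 of 16 limited-stress cows, and in the LT of 1 and 2 cows. In the ST it reached -4.25 in cow E, -5.10 in cow F and -5.81 in cow G, all stressed, against group medians of -9.55 in stressed and -10.07 in limited-stress cows. Cow E was among the 3 highest on 5 of 5 custom IL6 probes in the ST and cows F and G on 4 of 5, whereas in the LT the IL6 member probe was near background in these 3 cows. Of the custom probes in the LT, 1 of 5 was above background in cow E (at -7.57), which was among the 3 highest on 2 of 5, and 0 of 5 in cows F and G. That probe was above background in the LT of 7 other cows as well, the highest at -7.64. On another of the custom probes, a different cow reached -3.54 in the LT. TNF was above background in the ST of 3 limited-stress cows and 1 stressed cow, with the highest level at -5.11, and in 0 LT samples.

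ISG20, an interferon-induced exonuclease, was among the 3 highest in cows A and B on all 5 probes of a custom set in both muscles, at levels of -4.97 to -3.30 in the LT and -5.55 to -3.92 in the ST. On the 5 probes of a second custom set, cow A was among the 3 highest on 3 (LT) and 2 (ST), and cow B on 2 in each muscle. Cows A and B also had the highest MX1. Cow C, which ranked 3 for MX1, was among the 3 highest on 4 (LT) and 1 (ST) of the 5 probes of the first set. On the ISG20 member probe in the LT, another cow was brightest at -2.91, above cows A (-6.30) and B (-6.29). MYD88, which passed the limit with 21 of 32 LT arrays above background, was at -3.69 in the LT of 1 cow, where the next highest sample was at -7.27 and the median at -7.85.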
